A study of Mus musculus with 9 samples.

Results

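The 47 genes described here encode the core autophagy machinery, the receptors that hand cargo to it, and the factors and membrane proteins that tie it to the lysosome. They were listed by name, with earlier results of these data known, and all 47 were found among the 36121 genes of the deposited expression table. All 47 also had a mean value of at least 1 over the 9 libraries, as did 15014 genes in all. The libraries were made from whole sciatic nerves of 21-day-old C57BL6 mice in 3 groups of 3 mice. In cKO nerves (Cnp-Cre; Tardbp-fl/fl) both alleles of Tardbp, the gene of the RNA-binding protein TDP-43, are open to deletion by a Cre driven from Cnp, a gene of myelinating glia. In cHet nerves (Cnp-Cre; Tardbp-fl/+) 1 allele is floxed and the same Cre is present. Control nerves (Tardbp-fl/fl) carry the floxed alleles without Cre, so that cHet and control nerves differ in Cre as well as in Tardbp. In each group 1 mouse was male (cKO ID-2748, cHet ID-2750 and control ID-2754), and the others were female. Fibroblasts, vessels, immune cells and axons of the nerve are not glia of this kind, and they add their own RNA to every library.

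Autophagy encloses cytoplasm in a double membrane, the phagophore, and delivers it to the lysosome for breakdown. A kinase complex built around ULK1 starts the process, a lipid kinase complex marks the membrane, ubiquitin-like conjugation enzymes attach small ATG8 proteins (the LC3 and GABARAP proteins) to it, and receptors bind both the ATG8 proteins and the cargo. Schwann cells are known to use this route to break down their own myelin after nerve injury. The transcription factors TFEB, TFE3 and MITF raise many lysosomal genes through an E-box with the core CACGTG.

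Promoter sequences were available from RefSeq (GRCm38.p6) for 39 of the 47 genes, each covering 250 bases before and 50 bases after the gene start. Searched on both strands, the palindrome CACGTG was present in the promoters of 7 of these 39 genes (Atg14, Atg3, Atg5, Atg7, Bnip3, Lamp1 and Tbk1), or 17.9%, and in 7.15% of all 32851 promoters. The longer GTCACGTG, which contains the same 6 letters, was present in 5 of the 39 (12.8%) and in 2.25% of all promoters. Of the lysosomal enzyme and membrane protein genes listed as companions to the 47, 12 of 33 with a promoter held GTCACGTG. This was the largest share of the companion lists. The others held it in 2 of 12 vacuolar ATPase genes and 2 of 27 nutrient sensing genes. It was also held by 3 of 21 genes of autophagosome fusion and other autophagy factors, and 2 of 11 of ER-phagy, ferritin and further mitophagy factors. The listed genes were counted per gene, with a match in any promoter of the gene, whereas the shares of all promoters count each promoter. These shares are therefore not in the same unit. Of the genes with the motif, 3 are shown because their products stand at different steps: Lamp1 encodes a major lysosomal membrane protein, Atg3 the enzyme that attaches ATG8 proteins to lipid, and Bnip3 a mitophagy receptor. Capitals mark each CACGTG, which occurs 4 times in Lamp1, 2 times in Atg3 and 1 time in Bnip3.
Lamp1, chr8:13158911-13159210, plus strand: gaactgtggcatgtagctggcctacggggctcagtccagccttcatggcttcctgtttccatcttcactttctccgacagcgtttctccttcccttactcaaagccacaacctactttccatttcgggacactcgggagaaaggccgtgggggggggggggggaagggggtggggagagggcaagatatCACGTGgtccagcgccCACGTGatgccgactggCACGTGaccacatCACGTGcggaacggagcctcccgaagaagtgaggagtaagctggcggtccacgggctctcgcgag
Atg3, chr16:45158579-45158878, plus strand: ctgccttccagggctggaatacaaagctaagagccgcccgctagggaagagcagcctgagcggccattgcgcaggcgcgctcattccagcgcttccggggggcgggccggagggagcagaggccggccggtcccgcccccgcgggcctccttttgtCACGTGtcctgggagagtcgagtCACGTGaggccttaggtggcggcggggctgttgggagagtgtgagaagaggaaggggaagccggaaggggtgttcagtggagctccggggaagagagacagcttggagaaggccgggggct
Bnip3, chr7:138909457-138909756, minus strand: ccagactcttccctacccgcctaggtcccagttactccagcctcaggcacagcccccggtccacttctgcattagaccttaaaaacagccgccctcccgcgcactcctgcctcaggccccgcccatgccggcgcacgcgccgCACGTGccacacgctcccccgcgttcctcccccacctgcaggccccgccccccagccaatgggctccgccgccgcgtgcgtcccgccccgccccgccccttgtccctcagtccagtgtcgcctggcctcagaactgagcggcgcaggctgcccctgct
A match describes the letters in this window and is not evidence of binding.

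TDP-43 binds UG-rich RNA. At least 8 bases of alternating T and G (TGTGTGTG) stood in an annotated protein-coding transcript (GENCODE M21) of 14 of the 47 genes, or 29.8%, and of 28.1% of the 13991 tested genes that have such transcripts. With 12 bases (TGTGTGTGTGTG) the shares were 6 of 47 (12.8%) and 8.32%. Introns, where many TDP-43 sites lie, were not searched. The repeats of the 2 receptor genes with the largest differences between cKO and control nerves are shown in capitals, written as the DNA of the transcript strand.
Calcoco2 transcript, chromosome 11: tactttgataTGTGTGTGTatcctgggta
Optn transcript, chromosome 2: ggcatcttgtTGTGTGTGTaattctgtgg
Calcoco2 and Optn shared such a repeat with 28.1% of the genes searched, and the 2 repeats were each 9 bases long.

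All levels below are normalized TPM, a share of transcripts that takes gene length into account, as the submitters scaled it. Tardbp itself had 103, 94.2 and 103 normalized TPM in cKO nerves, 177, 179 and 186 in cHet nerves, and 185, 194 and 217 in control nerves. The cKO libraries thus lay below all others, with a log2 fold change of -0.98 ± 0.09 (SE) against control nerves (adjusted p = 0.00219). Fold changes come from limma on log2(value + 0.5), and a gene was called at an adjusted p below 0.05 over the 15014 genes. The libraries also differed in the tissue they caught. Neuron markers (10 genes, summed) ranged from 350 to 1858 normalized TPM in cKO nerves, 180 to 1678 in cHet nerves and 178 to 4277 in control nerves. Skeletal muscle markers reached 8674 in cKO mouse ID-2748 and 16529 in control mouse ID-2743, against at most 597 in the other libraries, and adipocyte markers reached 2162 and 2993 in control mice ID-2743 and ID-2754, against at most 560 elsewhere. Markers of myelinating Schwann cells, the cells that Cnp-Cre reaches in this tissue, summed to between 76841 and 133632 in every library. For 3 libraries (cKO mice ID-2744 and ID-2747 and cHet mouse ID-2742) the genotype field of the record differs from the title. Titles were used. The Tardbp levels of cKO mice ID-2744 and ID-2747 (103 and 94.2) lay below every cHet and control library, as their titles would have it. The field of cHet mouse ID-2742 (177) gives the control genotype, Tardbp-fl/fl. Its Tardbp level lay below all 3 control libraries. Tardbp still cannot decide for this mouse, since the cHet and control libraries overlapped through cHet mouse ID-2750 at 186 (log2 fold change -0.14 ± 0.09).

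Mean levels of the 47 genes spanned from 3.14 normalized TPM for Calcoco2 to 591 for Lamp1, with a median of 33.1, beside a median of 15.6 for all genes tested. The ATG8 genes were high throughout, from 147 for Map1lc3b to 274 for Gabarap, and Sqstm1 had 251. The class III PI3-kinase genes were lower, from 8.58 for Atg14 to 17.7 for Uvrag, apart from Becn1 at 136. The median within-group SD of the 47 genes was 0.142 on the log2 scale, against 0.214 for all genes tested, without matching for level. By role it ran from 0.104 for the phagophore genes to 0.254 for the ATG8 genes.

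Of the 47 genes, 1 was called between cKO and control nerves, and it was lower in cKO nerves. The background was 1.57% of all genes (235 of 15014, 140 higher and 95 lower), so that a share of 2.13% of the members lies near it. Between cHet and control nerves 0 of 47 genes were called, as were 0% of all genes. At an unadjusted p below 0.05 limma counted 5 of the 47 in that comparison, beside 2.72% of all genes. Of these, 1 was higher and 4 lower in cHet nerves, beside 0.813% and 1.9% of all genes. Between cKO and cHet nerves 1 of 47 was called, again lower in cKO nerves, beside 1.71% of all genes. The gene was Calcoco2 in both comparisons with cKO nerves.

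The median log2 fold change of the 47 genes was 0.02 between cKO and control nerves, beside -0.02 for all genes tested. It was -0.05 between cHet and control nerves, beside -0.03, and 0.04 between cKO and cHet nerves, beside 0.02. The 95% interval of the fold change between cKO and control nerves lay inside -1 to 1 on the log2 scale for 46 of 47 genes and inside -0.5 to 0.5 for 32. Changes of 2-fold or more therefore lay outside the interval of every gene but Calcoco2.

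**Figure D1:**
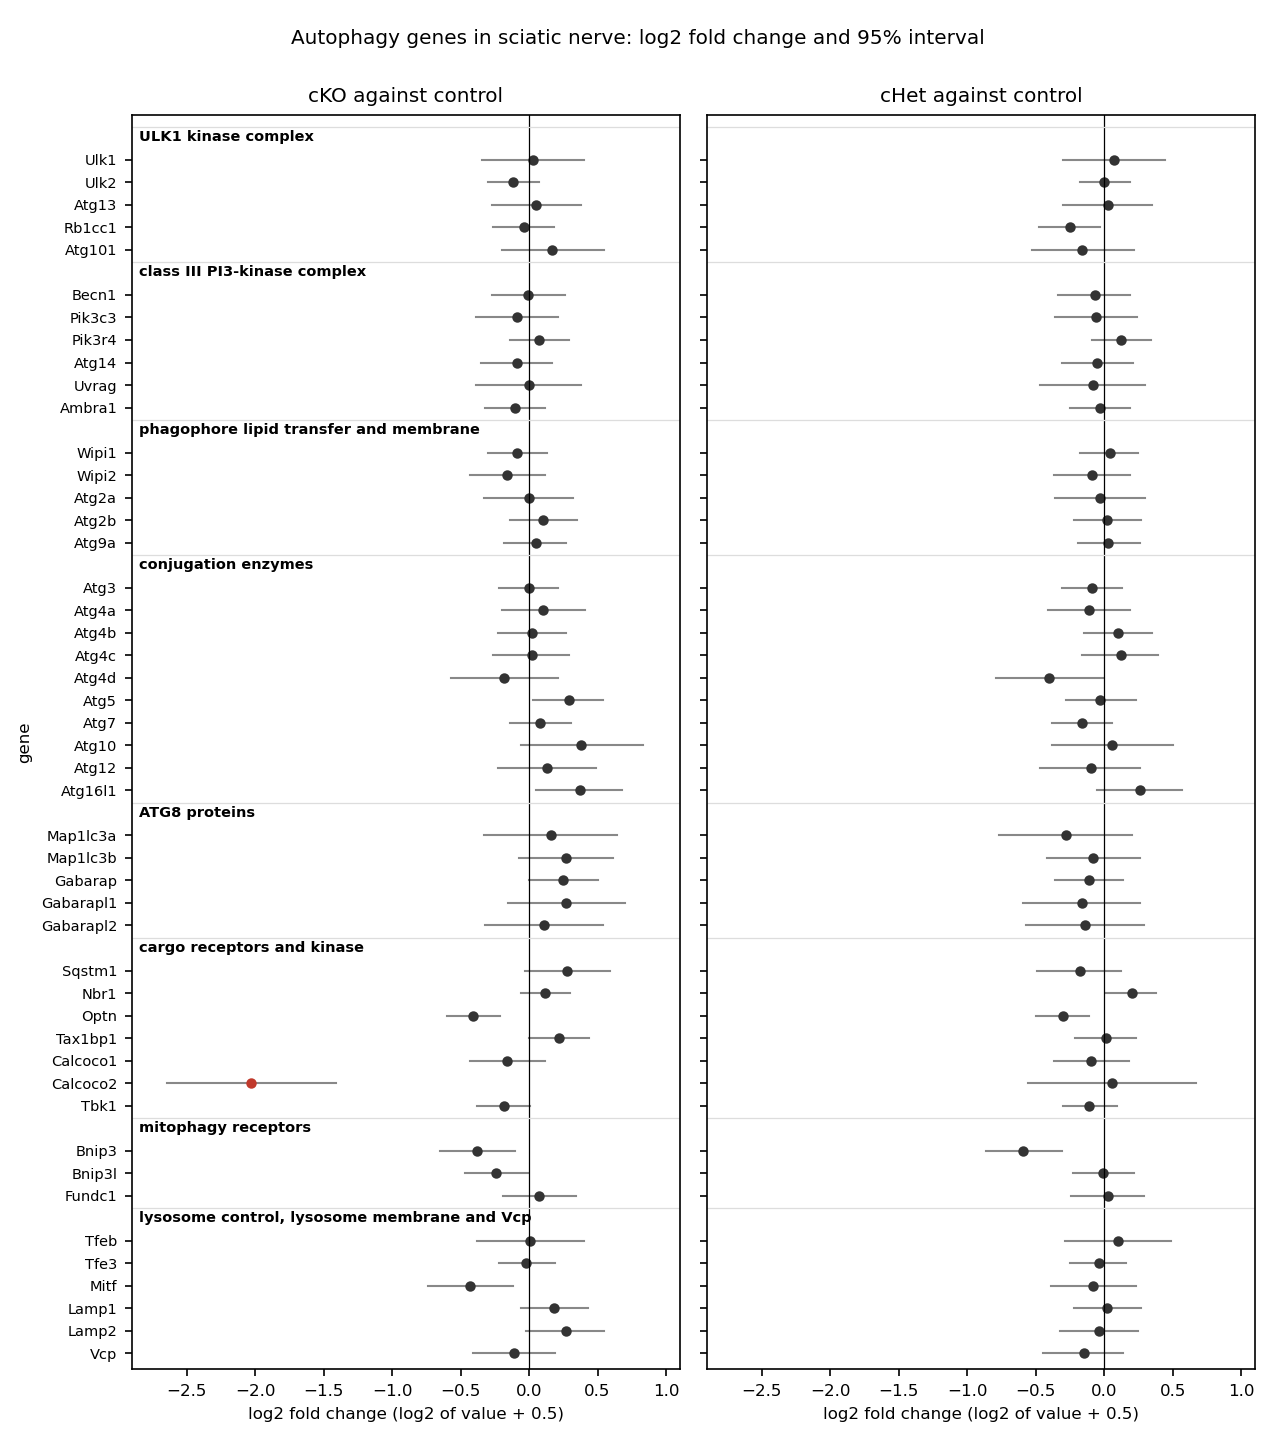
Log2 fold change (x axis, log2 of normalized TPM + 0.5) of each of the 47 genes, grouped by role, for cKO against control (left) and cHet against control (right). Points are limma estimates, lines are 95% intervals, and red marks an adjusted p below 0.05. Calcoco2 at -2.03 stands alone on the left, and it lies at 0.06 on the right.

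Calcoco2 encodes NDP52, a receptor that in human cells links ubiquitin-coated bacteria and damaged mitochondria to ATG8 proteins. It lies on chromosome 11 (96099326-96111964, minus strand, GRCm38) and overlaps no other annotated gene. It had 1.02, 0.479 and 0.536 normalized TPM in cKO nerves, 4.09, 5.66 and 3.64 in cHet nerves, and 4.51, 5.16 and 3.18 in control nerves. The 3 cKO libraries lay below all 6 others, and the cHet and control libraries overlapped. The means were 0.677 ± 0.294 in cKO nerves, 4.46 ± 1.06 in cHet nerves and 4.28 ± 1.01 in control nerves (SD, n = 3 each). The log2 fold change was -2.03 ± 0.27 (SE) against control nerves, or 4.08-fold lower on the log2(value + 0.5) scale (limma, adjusted p = 0.0115). Against cHet nerves it was -2.08 ± 0.27 (adjusted p = 0.0107), and between cHet and control nerves 0.06 ± 0.27 (adjusted p = 1). With a pseudocount of 0.1 the value against control nerves was -2.53, and with 1 it was -1.65. Among the 95 genes called lower in cKO than in control nerves, Calcoco2 had the fourth-largest fall, and among the 116 called lower in cKO than in cHet nerves the third-largest.

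The call of Calcoco2 did not hold in every setting. Without cKO mouse ID-2748 it was -1.95 with an adjusted p of 0.0537 against control nerves, and -2.01 with 0.055 against cHet nerves, where leaving out cHet mouse ID-2745 gave -1.92 with 0.061. Without the 3 libraries highest in neuron markers it was -1.82 (adjusted p = 0.161) against control nerves, and leaving out the 2 muscle-rich libraries -1.91 (adjusted p = 0.131). Without the 2 high in adipocyte markers, the fat-rich ones, it was -2.29 (adjusted p = 0.128), with control mouse ID-2746 as the lone control and assumed to vary like the other groups. The level of Calcoco2 is the lowest of the 47 genes, and it passed the filter on low values through the cHet and control libraries, since its cKO mean lies below 1.

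The gene next to Calcoco2 behaved alike in these libraries. This neighbourhood was examined after the values of Calcoco2 were seen. Ttll6, which encodes a tubulin glutamylase, starts 21.8 kb beyond the start of Calcoco2 on the other strand, so that both genes are read away from the stretch between them. It had 1.51, 1.45 and 1.33 normalized TPM in cKO nerves, 6.81, 9.95 and 8.05 in cHet nerves, and 6.55, 6.2 and 6.06 in control nerves. Its log2 fold change was -1.81 ± 0.16 (SE) against control nerves (adjusted p = 0.00219), -2.17 ± 0.16 against cHet nerves (adjusted p = 0.000887), and 0.36 ± 0.16 between cHet and control nerves (adjusted p = 1). Against control nerves this call was lost without the 3 libraries highest in neuron markers (-1.78, adjusted p = 0.0628), the muscle-rich ones (-1.74, adjusted p = 0.0582) or the fat-rich ones (-1.80, adjusted p = 0.0846). Of the 14 tested genes whose start lies within 250 kb of that of Calcoco2, these 2 were called. The other 12, which include Atp5g1, Ube2z and Snf8 on one side and 8 Hoxb genes on the other, had log2 fold changes between cKO and control nerves from -0.62 for Hoxb8 to 0.06 for Snf8.

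**Figure D2:**
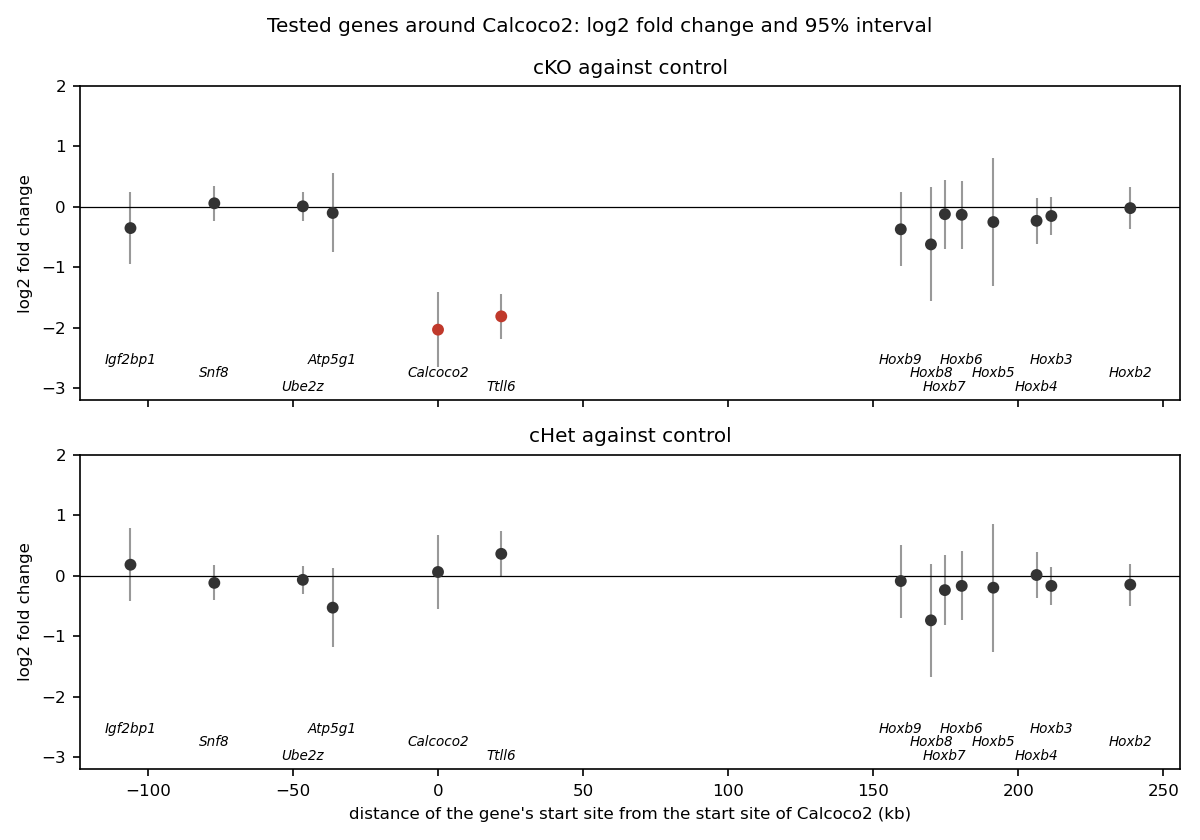
Log2 fold change (y axis) with 95% interval of the 14 tested genes around Calcoco2, placed by the distance of their start site from that of Calcoco2 (x axis, kb), for cKO against control (top) and cHet against control (bottom). Red marks an adjusted p below 0.05. Calcoco2 (-2.03) and Ttll6 (-1.81) lie apart from their neighbours in the top panel, and at 0.06 and 0.36 in the bottom panel.

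The remaining receptors did not move as a group. Optn encodes optineurin, a ubiquitin receptor of damaged mitochondria and a gene of familial amyotrophic lateral sclerosis. It lies on chromosome 2 (5020642-5064051, minus strand). It had 16, 16.2 and 17.4 normalized TPM in cKO nerves, 17.6, 18.4 and 17.4 in cHet nerves, and 23.5, 21.6 and 21.2 in control nerves. Both groups with Cre lay below all 3 control libraries and close to each other. The log2 fold change was -0.41 ± 0.09 (SE) between cKO and control nerves, with an adjusted p of 0.0655 that missed the threshold, and -0.30 ± 0.09 between cHet and control nerves (adjusted p = 1). Between cKO and cHet nerves it was -0.10 ± 0.09 (adjusted p = 0.646). With the filter on low values raised to a mean of 5, Optn passed against control nerves with an adjusted p of 0.0477. Over the 24 alternatives its value stayed between -0.47 and -0.34.

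Tbk1, the kinase that phosphorylates optineurin and other receptors, had 32.9, 28.8 and 31.7 normalized TPM in cKO nerves, 33.5, 30.9 and 34.1 in cHet nerves, and 35.4, 34.3 and 36.6 in control nerves. Its cKO and cHet libraries also lay below the control libraries, by a log2 fold change of -0.18 ± 0.08 in cKO nerves (adjusted p = 0.415) and -0.11 ± 0.08 in cHet nerves (adjusted p = 1). Tax1bp1, a receptor of ubiquitin-coated aggregates, had 109, 114 and 116 normalized TPM in cKO nerves, 101, 97.1 and 94.8 in cHet nerves, and 98.7, 109 and 85.4 in control nerves. The highest control library nearly met the lowest cKO library, and the log2 fold change against control nerves was 0.22 ± 0.10 (adjusted p = 0.393).

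Sqstm1 encodes p62, the receptor that gathers ubiquitin-coated protein into bodies and is itself consumed by autophagy. It had 270.4, 318 and 297 normalized TPM in cKO nerves, 233, 197 and 213 in cHet nerves, and 207, 289 and 238 in control nerves. The cKO libraries lay above all cHet libraries and overlapped the control libraries through control mouse ID-2746, which also had the highest neuron marker sum. The log2 fold change was 0.46 ± 0.13 (SE) against cHet nerves (adjusted p = 0.156) and 0.28 ± 0.13 against control nerves (adjusted p = 0.441). Against control nerves it was 0.40 without the 3 libraries highest in neuron markers (adjusted p = 0.402), 0.17 without control mouse ID-2743, 0.16 without the muscle-rich libraries, and 0.03 without the fat-rich ones, which leaves 1 control. Nbr1, a receptor related to p62, was 103, 95.3 and 105 normalized TPM in cKO nerves, 112, 104 and 105 in cHet nerves and 96, 87.9 and 96 in control nerves. Its difference between cHet and control nerves was 0.20 ± 0.08 on the log2 scale (adjusted p = 1).

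**Figure D3:**
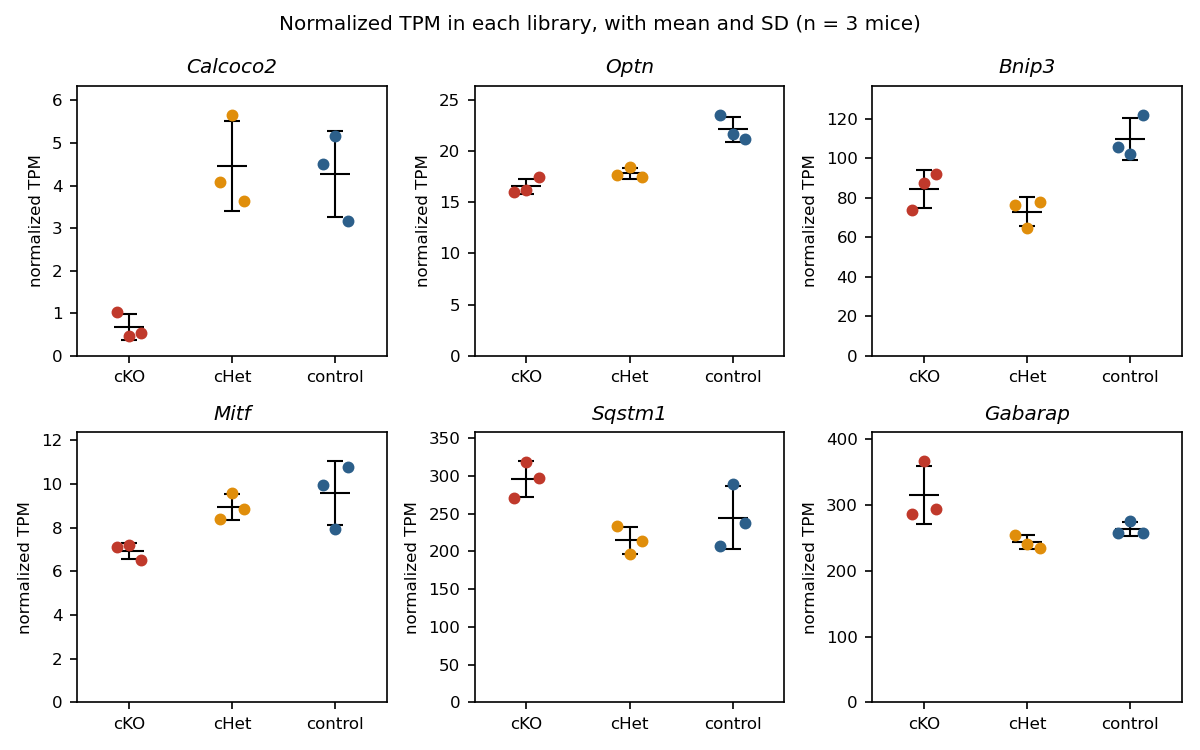
Normalized TPM (y axis, from 0) of 6 genes in each library of cKO, cHet and control nerves. Coloured points are mice and black bars are mean ± SD of 3 mice. Calcoco2 is low in the cKO libraries alone (0.479 to 1.02), whereas Optn and Bnip3 lie below the control libraries in both cKO and cHet nerves.

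The 5 ATG8 genes all had positive log2 fold changes between cKO and control nerves, from 0.11 to 0.27, and between cKO and cHet nerves, from 0.25 to 0.44, and none was called. Between cHet and control nerves all 5 were negative, from -0.28 to -0.08. Gabarap had 286, 366 and 293 normalized TPM in cKO nerves, 255, 241 and 235 in cHet nerves, and 257, 276 and 257 in control nerves. It was the ATG8 gene whose cKO libraries lay above all 6 others. Its log2 fold change was 0.25 ± 0.11 (SE) against control nerves (adjusted p = 0.38) and 0.36 ± 0.11 against cHet nerves (adjusted p = 0.166). Without cKO mouse ID-2747, the highest library, it was 0.14 against control nerves (adjusted p = 0.605).

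Map1lc3a, which encodes LC3A, had 222, 318 and 294 normalized TPM in cKO nerves, 242, 189 and 182 in cHet nerves, and 201, 329 and 227 in control nerves. Map1lc3b, which encodes the LC3B protein used as an autophagosome marker, had 161, 175 and 168 in cKO nerves, 153, 118 and 126 in cHet nerves, and 124, 173 and 125 in control nerves. In both genes control mouse ID-2746 was higher than every cHet library, and the other 2 controls lay within the cHet range. The same control library was the highest control in Gabarapl1, which had 228, 269.7 and 283 normalized TPM in cKO nerves, 191, 193 and 189 in cHet nerves, and 168, 292 and 201 in control nerves. Gabarapl2 had 149.9, 197 and 185 normalized TPM in cKO nerves, 173, 140.3 and 135 in cHet nerves, and 149, 215 and 136 in control nerves. In Map1lc3a, Map1lc3b, Gabarap and Gabarapl2, the cHet library with the highest neuron marker sum (mouse ID-2742, 1678) was also the highest of its group. Summed over the 5 genes, the ATG8 level was 1048, 1326 and 1223 in cKO nerves, 1014, 882 and 867 in cHet nerves, and 899, 1286 and 946 in control nerves.

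The 3 libraries highest in neuron markers, 1 in each group, could be set aside. The log2 fold changes between cKO and control nerves were then 0.31 for Map1lc3a, 0.43 for Map1lc3b, 0.33 for Gabarap, 0.44 for Gabarapl1 and 0.27 for Gabarapl2, with adjusted p-values from 0.265 to 0.59. When control mice ID-2743 and ID-2754, high in adipocyte markers, were set aside instead, control mouse ID-2746 was the lone control. Gabarap then remained positive at 0.18 and the other 4 became negative, from -0.29 to -0.04. In cKO nerves the library highest in neuron markers (mouse ID-2748, 1858) was the highest of its group in Gabarapl1, but not in the other 4 ATG8 genes or in their sum. The part of axon and neuron RNA in the ATG8 levels was not tested. In bulk nerve, fewer cells of a type and less RNA per cell cannot be told apart.

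**Figure D4:**
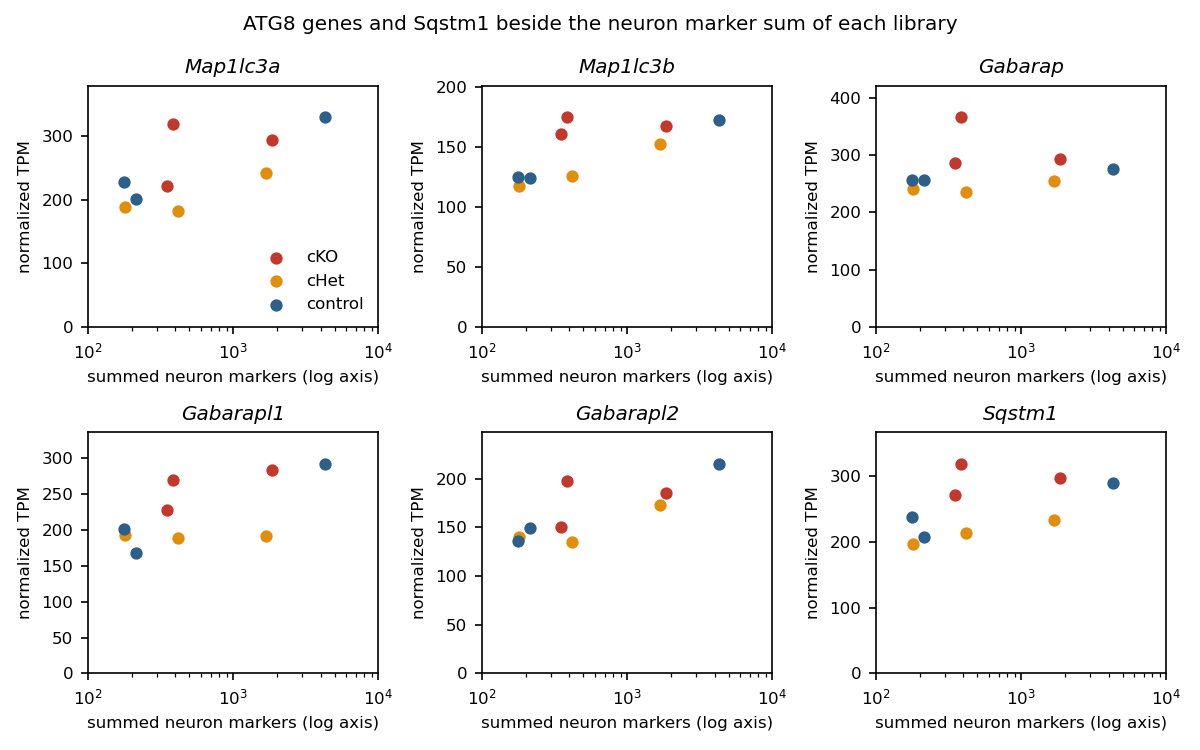
Normalized TPM (y axis, from 0) of the 5 ATG8 genes and Sqstm1 in each library against the summed normalized TPM of 10 neuron markers (x axis, log scale), coloured by group. The control library at 4277 on the x axis (mouse ID-2746) lies above the 2 other controls in every panel.

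The conjugation enzymes included 2 genes whose cKO libraries lay above all control libraries. Atg16l1, which directs the conjugation machinery to the phagophore, had 32.7, 31.7 and 37.3 normalized TPM in cKO nerves, 30.4, 34.1 and 29.8 in cHet nerves, and 26.7, 21.7 and 30.9 in control nerves. Its log2 fold change against control nerves was 0.37 ± 0.14 (SE, adjusted p = 0.293), and the cHet libraries overlapped both groups. Atg5, its partner in the conjugating complex, had 18.2, 20.3 and 18.3 in cKO nerves, 15.3, 15.3 and 14.7 in cHet nerves, and 14.9, 17.7 and 13.8 in control nerves. Its log2 fold change against control nerves was 0.29 ± 0.11 (adjusted p = 0.316). Atg10, which links ATG12 to ATG5, had 13.8, 15.9 and 14.2 in cKO nerves, 12.9, 11.3 and 10.6 in cHet nerves, and 12, 14.1 and 7.96 in control nerves. At 0.38 ± 0.19 (adjusted p = 0.467) this was the highest log2 fold change of the 47 genes against control nerves, and it overlapped the control libraries. In cHet nerves the lowest log2 fold change of these enzymes against control nerves was that of Atg4d, a protease that trims ATG8 proteins, with 14.6, 13.6 and 14.5 normalized TPM in cHet nerves and 15.8, 21 and 20.5 in control nerves (log2 fold change -0.40 ± 0.17, adjusted p = 1).

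The initiation genes differed little between the groups. In the ULK1 complex the 5 log2 fold changes between cKO and control nerves ran from -0.12 to 0.17, in the class III PI3-kinase complex from -0.10 to 0.07, and among the phagophore genes from -0.16 to 0.10, with 0 of these 16 genes called. Ulk2, a kinase that can stand in for ULK1, had 31.1, 30.6 and 33.7 normalized TPM in cKO nerves, 33.2, 37.1 and 33.5 in cHet nerves, and 35.2, 34.4 and 34 in control nerves. Its cKO libraries lay just below the control libraries, by -0.12 ± 0.08 on the log2 scale (adjusted p = 0.627). Atg101, a subunit that steadies the ULK1 complex, had 32, 47.9 and 33.7 in cKO nerves, 32.4, 28.4 and 28 in cHet nerves, and 29.7, 38.1 and 31.8 in control nerves. Its log2 fold change of 0.17 ± 0.16 (adjusted p = 0.751) rested on cKO mouse ID-2747, without which it was -0.01. Rb1cc1, which encodes the scaffold FIP200, was lower in cHet nerves (42.7, 44.3 and 41.7) than in control nerves (52.6, 53.3 and 47.7) with no overlap, at -0.25 ± 0.10 on the log2 scale (adjusted p = 1).

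In the lipid kinase complex, Ambra1 had 12.7, 12 and 13.5 normalized TPM in cKO nerves, 14.4, 13 and 12.6 in cHet nerves, and 13.2, 13.8 and 13.9 in control nerves. Atg14, the subunit that brings the complex to the phagophore, had 7.78, 8.48 and 8.62 in cKO nerves, 8.28, 8.19 and 9.22 in cHet nerves, and 9.52, 8.03 and 9.14 in control nerves. Between cKO and control nerves these were the genes with the largest differences of that complex, and in both the groups overlapped. Wipi2, which reads the lipid mark, had 33.7, 37.9 and 33.6 in cKO nerves, 34.2, 40.2 and 35.9 in cHet nerves, and 33.1, 41.7 and 43.3 in control nerves. Atg2b, a lipid transfer protein, had 11.1, 12.1 and 10.4 in cKO nerves, 10.2, 10.9 and 10.6 in cHet nerves, and 9.46, 11 and 10.8 in control nerves, again with overlap.

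Of the mitophagy receptors, Bnip3 and Bnip3l were lower in cKO than in control nerves without passing the threshold. Bnip3, which is known to rise under hypoxia, had 73.8, 87.5 and 92.3 normalized TPM in cKO nerves, 76.6, 64.6 and 77.9 in cHet nerves, and 106, 102 and 122 in control nerves. All 6 libraries with Cre lay below the controls. The log2 fold change was -0.38 ± 0.12 (SE) between cKO and control nerves (adjusted p = 0.206), -0.59 ± 0.12 between cHet and control nerves (adjusted p = 1), and 0.21 ± 0.12 between cKO and cHet nerves (adjusted p = 0.485). The value for cHet nerves was the lowest of the 47 genes in that comparison. It ranged from -0.68 to -0.49 over the 24 alternatives, with adjusted p-values from 0.43 to 1. Bnip3l, which encodes NIX, a related receptor, had 156, 155 and 163 in cKO nerves, 175, 195 and 188 in cHet nerves, and 177, 213 and 172 in control nerves. Here the cHet and control libraries overlapped and the cKO libraries lay below both, at -0.24 ± 0.10 against control nerves (adjusted p = 0.359).

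Of the 3 related transcription factors, Mitf differed most. It had 7.12, 7.19 and 6.5 normalized TPM in cKO nerves, 8.39, 9.6 and 8.86 in cHet nerves, and 9.96, 7.95 and 10.8 in control nerves, so that the cKO libraries lay below all others. The log2 fold change was -0.43 ± 0.14 (SE) against control nerves (adjusted p = 0.206), -0.35 ± 0.14 against cHet nerves (adjusted p = 0.29) and -0.08 ± 0.14 between cHet and control nerves (adjusted p = 1). Without the fat-rich libraries, which are the 2 controls with the highest Mitf, the value against the lone remaining control was -0.19 (adjusted p = 0.639). Melanocyte markers, a list of 4 genes that MITF is known to control in pigment cells, summed to at most 9.35 in cKO nerves, 6.79 in cHet nerves and 14.3 in control nerves, and their part in the Mitf level was not tested. Tfeb had 23.6, 29.5 and 29.5 in cKO nerves, 28.5, 33.7 and 25.9 in cHet nerves, and 21.4, 31.4 and 29.9 in control nerves. Tfe3 had 22.2, 22.3 and 22.8 in cKO nerves, 21.7, 23.8 and 20.7 in cHet nerves, and 22, 21.7 and 24.5 in control nerves. Both overlapped across all groups.

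Lamp1 had 609, 708 and 601 normalized TPM in cKO nerves, 517, 591 and 606 in cHet nerves, and 569.6, 536 and 578 in control nerves, with the cKO libraries above the controls by 0.18 ± 0.11 on the log2 scale (adjusted p = 0.541). Lamp2, which encodes a second lysosomal membrane protein and the receptor of chaperone-mediated autophagy, had 193, 210.4 and 192 in cKO nerves, 164, 155 and 164 in cHet nerves, and 169, 194 and 137 in control nerves. The cKO libraries lay above the cHet libraries (0.30 ± 0.12, adjusted p = 0.308) and met the controls at mouse ID-2746 (0.27 ± 0.12, adjusted p = 0.424).

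Counted over all 47 genes, the cKO and control libraries did not overlap in 12 (5 higher and 7 lower in cKO nerves), or 25.5%, beside 17.4% of all genes tested. The higher genes were Gabarap, Tax1bp1, Atg16l1, Atg5 and Lamp1, and the lower ones Calcoco2, Optn, Tbk1, Bnip3, Bnip3l, Mitf and Ulk2. The cHet and control libraries did not overlap in 9 genes (2 higher and 7 lower in cHet nerves), or 19.1%, beside 7.1% of all genes. The cKO and cHet libraries did not overlap in 15 genes (11 higher and 4 lower in cKO nerves), or 31.9%, beside 24.3% of all genes. At an unadjusted p below 0.05 the counts were 8 of 47 between cKO and control nerves, beside 12.9% of all genes, and 10 of 47 between cKO and cHet nerves, beside 14.6%. Both comparisons of cKO and cHet nerves with control nerves share the same 3 control libraries. The within-library median of the 47 genes, taken as the deviation from each gene's mean, was highest in control mouse ID-2746 (0.15 on the log2 scale) and between -0.09 and 0.07 in the other 8 libraries.

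The 5 companion lists held 124 further tested genes of the pathway. In the lysosomal enzyme and membrane protein list, 0 of 42 genes were called in any comparison, and the median log2 fold change between cKO and control nerves was 0.01. At an unadjusted p below 0.05, 7 of the 42 were higher and 0 lower in cKO than in control nerves, beside 6.45% higher and 6.44% lower of all genes tested. Between cKO and cHet nerves 10 of the 42 were higher and 2 lower at that p, beside 7.89% and 6.69%. Without overlap between cKO and control libraries, 10 of the 42 were higher and 3 lower in cKO nerves. Among all 15014 genes these counts were 1329 and 1286. Cd63, Asah1, Atp6ap2, Gpnmb, Sesn3, Depdc5, Sesn1, Rraga and Lamtor3 of the companion lists were named after their values were seen. Cd63, a membrane protein of late endosomes and lysosomes, had 409, 466 and 413 normalized TPM in cKO nerves, 329, 290.0 and 292 in cHet nerves, and 348, 300.1 and 285 in control nerves. Its log2 fold change against control nerves was 0.47 ± 0.11 (SE, adjusted p = 0.087). Asah1, acid ceramidase, had 204, 206 and 183 in cKO nerves, 154, 169.5 and 176 in cHet nerves, and 162, 147 and 139 in control nerves (0.40 ± 0.09, adjusted p = 0.0882). In both the cKO libraries lay above all others without a call.

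Of the vacuolar ATPase subunits, the proton pump that acidifies lysosomes, 0 of 16 tested were called, 4 were higher and 0 lower in cKO than in control nerves at an unadjusted p below 0.05 (beside the same 6.45% and 6.44% of all genes), and the median was 0.06. Atp6ap2, an accessory subunit, had 74.7, 70.2 and 79.2 normalized TPM in cKO nerves, 53.7, 52.1 and 54 in cHet nerves, and 47.9, 62.4 and 41.3 in control nerves (log2 fold change 0.58 ± 0.14, adjusted p = 0.0982). Gpnmb, a lysosomal glycoprotein that rises in cells with loaded lysosomes, had 6.44, 6.19 and 6.2 in cKO nerves, 3.96, 2.04 and 2.5 in cHet nerves, and 3.98, 1.55 and 2.46 in control nerves (1.17 ± 0.31, adjusted p = 0.127). Macrophage markers, from cells that also express Gpnmb, summed to between 180 and 259 in cKO nerves, 183 and 233 in cHet nerves, and 162 and 267 in control nerves.

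The list of mTORC1, AMPK and nutrient sensing genes had 0 of 29 called in any comparison, and 3 higher and 2 lower in cKO than in control nerves at an unadjusted p below 0.05, beside 6.45% and 6.44% of all genes. The 2 lower genes were Sesn3 and Depdc5. Sesn3, a sestrin that restrains mTORC1, had 20.5, 17 and 23 normalized TPM in cKO nerves, 23.4, 34.6 and 35 in cHet nerves, and 27.3, 33.9 and 36.7 in control nerves (log2 fold change -0.68 ± 0.19 against control nerves, adjusted p = 0.155). Depdc5, a subunit of the GATOR1 complex that also restrains mTORC1, had 7.87, 8.13 and 11.6 in cKO nerves, 15.9, 13.4 and 15.6 in cHet nerves, and 13, 23.4 and 12.6 in control nerves (-0.76 ± 0.25, adjusted p = 0.218). In both the cKO libraries lay below all others without a call. The 3 higher genes were Sesn1, another sestrin, Rraga and Lamtor3. Sesn1 had 171, 239.8 and 170.4 normalized TPM in cKO nerves, 124, 145 and 191 in cHet nerves, and 130.1, 151 and 138 in control nerves. Against control nerves the log2 fold changes were 0.45 ± 0.18 for Sesn1, 0.39 ± 0.16 for Rraga and 0.31 ± 0.09 for Lamtor3. Their adjusted p-values (limma) were 0.343, 0.349 and 0.173. Rptor encodes Raptor, the scaffold of mTORC1. It had 11.4, 9.69 and 11.7 normalized TPM in cKO nerves, 13.1, 13.9 and 11.7 in cHet nerves, and 13.1, 12.4 and 12.8 in control nerves. The cKO libraries lay below the controls by -0.22 ± 0.11 on the log2 scale (95% interval -0.48 to 0.04, adjusted p = 0.476). The list of autophagosome fusion and other autophagy factors held 25 tested genes. At an unadjusted p below 0.05, 4 were higher and 4 lower in cKO than in control nerves, beside 6.45% and 6.44% of all genes. Of the 25, 0 were called between cKO and control nerves or between cHet and control nerves, and 1 was called between cKO and cHet nerves. This was Vmp1, a lipid scramblase of the endoplasmic reticulum needed to form autophagosomes. It had 74.6, 83.4 and 81.4 in cKO nerves, 62.2, 53.2 and 58.6 in cHet nerves, and 62.1, 65.4 and 59.2 in control nerves. The cKO libraries lay above all others, by 0.46 ± 0.09 against cHet nerves (adjusted p = 0.0458) and 0.36 ± 0.09 against control nerves (adjusted p = 0.111). The call sat at the threshold and was lost when any 1 of the 9 libraries was left out, with adjusted p-values from 0.0506 to 0.19. Of the 12 genes of ER-phagy, ferritin and further mitophagy factors, 0 were called in any comparison, and 0 had an unadjusted p below 0.05 between cKO and control nerves.

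In the gene annotation, 22 of the 47 genes overlap another gene and 19 overlap one on the opposite strand, among them Optn, Bnip3, Mitf, Sqstm1 and Lamp1. Overlap was counted over whole gene spans, introns included, and overlap of exons was not tested. Where exons of opposite strands overlap, their reads cannot be told apart if strand was not kept. Whether it was kept is not given in the sources used here.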

How the data were processed

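RNA of 9 sciatic nerves (3 per group) was prepared with a TruSeq RNA kit and sequenced as paired ends by the authors. Per the labels they used kallisto 0.44.0 and sleuth 0.30.0 with GRCm38, and deposited 1 table of normalized TPM, a signal per gene that is no count. Annotation release of this table, strand setting and scaling: not given in the sources used here (an Ensembl release is named for separate genome alignments alone). Library sums ran from 934932 to 1158094, and read depth is not in the table. Of 36121 genes, 35471 carried a symbol. Groups followed sample titles.

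Genes with a mean of at least 1 (15014) were fitted in 1 model over 9 libraries with limma 3.58.1 (R 4.3.3) on log2(value + 0.5), with a mean-variance trend and Benjamini-Hochberg adjustment. The fit was tested on simulated data. Alternatives changed pseudocount, filter, scaling, model and libraries (24 in all).

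Every gene was accounted for by its level. Library values were given for called genes, genes whose cKO and control libraries did not overlap, the 2 largest differences per role, ATG8 genes, Tfeb, Tfe3, Mitf, Rptor and called companion genes (up to 4 per list). Companion genes that were not called, apart from Rptor, and Ttll6 were named after their values were seen. Values of Sqstm1, Nbr1, Rb1cc1 and Atg4d were given outside these rules, with the results already seen. Members and lists were chosen with earlier results of these data known. Each p-value sets a difference against the spread between mice within groups, with 3 mice per group. In the main fit that spread was pooled over the 3 groups and drawn toward the trend of all genes fitted.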

Additional observations from a re-analysis of the deposited data

How the results depend on the processing

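Over 24 alternatives the direction of Calcoco2 in both comparisons with cKO nerves was kept wherever it was tested. A mean filter of 5 leaves Calcoco2 out, so that 0 genes were called between cKO and cHet nerves and Optn was the 1 called against control nerves. The number of called genes was 0 in both comparisons without the 3 libraries highest in neuron markers, without the 3 whose genotype field differs from the title (which leaves 1 cKO library, assumed to vary like the others), in females alone, and without the muscle-rich libraries. Against control nerves it was also 0 in a fit of the 2 groups alone and without the fat-rich libraries. Leaving out 1 library at a time gave 0 to 1 in both. Between cHet and control nerves it was 0 throughout. The settings without muscle-rich libraries (cKO mouse ID-2748, control mouse ID-2743) and fat-rich libraries (control mice ID-2743 and ID-2754), named by summed markers, were chosen after seeing the data. The causes were not tested beyond the fewer libraries in these fits.

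Rescaling the libraries to the same sum moved the median of all genes between cKO and cHet nerves by -0.13, to -0.12, and the median of the 47 genes to -0.10. Without the fat-rich libraries the median of the 47 was -0.10 between cKO and control nerves and -0.18 between cHet and control nerves, with control mouse ID-2746 as the lone control.

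Of the companion genes, Vmp1 between cKO and cHet nerves was the 1 call, and the count was 0 without a filter, with libraries rescaled to the same sum, quantile normalization, sex as a covariate, no trend, without the libraries highest in neuron or skeletal muscle markers, without those whose genotype field differs, in females alone, and with each library left out (0 to 0). Without the fat-rich libraries, and in a fit of the 2 groups alone, Vmp1 was not called between cKO and cHet nerves and Atp6ap2 was. Against control nerves the count with 1 library left out ran from 0 to 1, the 1 being Atp6ap2 without control mouse ID-2746.

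Changes of sign occurred in genes that were not called. Calcoco2 between cHet and control nerves was -0.00 in females, -0.11 without cHet mouse ID-2745, -0.12 without control mouse ID-2754 and -0.21 without the fat-rich libraries. Mitf in that comparison was 0.01 in females, 0.01 without control mouse ID-2754 and 0.16 without the fat-rich libraries. Between cKO and control nerves, leaving out the fat-rich libraries gave -0.03 for Atg101, -0.17 for Gabarapl1, -0.29 for Gabarapl2, -0.26 for Map1lc3a and -0.04 for Map1lc3b. Atg101 was -0.01 without cKO mouse ID-2747, Gabarapl2 was -0.06 in females and -0.02 without control mouse ID-2754, and Map1lc3a was -0.04 without the muscle-rich libraries. With 1 library left out at a time, Atg101 between cKO and control nerves ran from -0.01 to 0.28, Gabarapl2 from -0.02 to 0.30, and between cHet and control nerves Calcoco2 ran from -0.12 to 0.19 and Mitf from -0.20 to 0.01. No paired analysis was possible because each mouse has its own number and the labels do not say which mice formed a set, although the study took age-matched mice of the 3 genotypes from the same or nearby litters.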
